A study of Mus musculus with 9 samples.

Results

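The genes described here encode the machinery that builds cilia and carries cargo within them, and the motor and structural parts of the ciliary axoneme. They were chosen by name: the gene symbol began with Ift or Bbs followed by a digit, or with Dnah, Dnaic, Dnali, Tekt or Rsph, or was that of a listed kinesin, small GTPase or adaptor (Kif3a, Kif3b, Arl3, Tulp3 and Wdr19 among them). Of the 14860 genes that the array table named with exactly 1 symbol, 39 met this rule. The rule itself uses names and no measured value, but it was set with earlier results of these data known. Kif7, Arl13b, Wdr35 and Ttc21b also belong to the rule and were not analysed here, since no row carried their symbol alone.

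Cilia are microtubule-based protrusions assembled by intraflagellar transport, in which trains of the IFT-B complex move outward with kinesin-2 and IFT-A with cytoplasmic dynein-2 drives the return. The BBSome, Arl3 and Tulp3 move membrane and lipid-modified proteins in and out of the cilium. Immotile primary cilia carry Hedgehog signalling in mesoderm and heart, whereas axonemal dyneins, radial spokes and tektins belong to motile cilia, such as those of the embryonic node that set the left-right axis, and to sperm tails.

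Expression was measured on 9 Affymetrix Mouse Exon 1.0 ST arrays, with 3 in each of 3 groups, all from the embryonic stem cell line E14.1 (129/Ola). The cells were differentiated in culture, and those of the Flk1+Pdgfra+ and Flk1+ groups were sorted as cardiac progenitors. The Flk1+Pdgfra+ group was positive for both surface receptors, Flk1 (encoded by Kdr) and Pdgfra. The Flk1+ group carried Flk1 and lacked Pdgfra. The cTnT+ group consisted of cardiomyocytes, positive for cardiac troponin T, that had been grown onward from Flk1+Pdgfra+ cells. The labels do not state whether the cTnT+ cells were sorted, and they are silent on whether each group's 3 arrays represent independent cultures. The p-values therefore reflect array-to-array spread, part of which may be technical. All groups derive from 1 cell line, and no undifferentiated or ciliated reference cells were used here.

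Values are log2 RMA expression, and each group mean is given ± SD over 3 arrays. A difference was called where limma's adjusted p over all 14860 genes was under 0.05, and the adjusted p-values below are from that fit. The 3 comparisons share arrays. Levels of different genes are not compared, since probes differ in brightness. A group mean is called dim where it lay under the lower quartile of expression on the arrays (5.60 to 5.69), and no exact fold is given for such a gene. In these bulk samples, fewer cells of a type and less RNA per cell cannot be told apart.

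Pdgfra and Tnnt2 differed between the groups that the labels set apart by them. Pdgfra averaged 11.35 ± 0.42 in Flk1+Pdgfra+ cells and 6.96 ± 0.40 in Flk1+ cells, and Tnnt2, which encodes cardiac troponin T, averaged 12.28 ± 0.38 in cTnT+ cells against 7.01 ± 0.37 in Flk1+Pdgfra+ cells. Pdgfra stayed at 11.31 ± 0.32 in cTnT+ cells (adjusted p = 0.925 against Flk1+Pdgfra+). Tnnt2 averaged 8.36 ± 0.52 in Flk1+ cells, called higher than in Flk1+Pdgfra+ cells (0.0289). Kdr averaged 12.30 ± 0.16 in Flk1+, 11.98 ± 0.25 in Flk1+Pdgfra+ and 10.84 ± 0.50 in cTnT+ cells. In cTnT+ cells, 8 of 8 cardiomyocyte markers were called higher than in Flk1+Pdgfra+ cells, as were 7 of 8 smooth muscle and fibroblast markers and 7 of 8 endothelial markers. The summed smooth muscle and fibroblast signal was 14.05 to 14.65 on the cTnT+ arrays and 9.68 to 12.35 on the progenitor arrays. The summed endothelial signal was 13.33 to 13.99 in cTnT+, 9.36 to 11.59 in Flk1+Pdgfra+ and 13.78 to 14.71 in Flk1+. No endothelial or smooth muscle marker was dim on a cTnT+ array. Between the progenitors, 5 of 8 blood and 7 of 8 endothelial markers were called lower in Flk1+Pdgfra+ cells than in Flk1+ cells. All 7 nascent mesoderm markers measured were called higher in Flk1+Pdgfra+ cells. Within the Flk1+ group, the third array stood apart, with a summed epithelial signal of 12.79 against 9.72 and 9.80 on the others. Its smooth muscle and fibroblast signal was 12.35 against 9.74 and 9.68. The third Flk1+Pdgfra+ array had a summed endothelial signal of 9.36 against 11.47 and 11.59. The part of these markers in the results below was not tested.

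Foxj1, the master regulator of motile cilia, was left out of the 39 by the rule. It averaged 6.27 ± 0.11 in Flk1+Pdgfra+, 6.25 ± 0.08 in Flk1+ and 6.01 ± 0.20 in cTnT+ cells, and no comparison was called (adjusted p = 0.940 for Flk1+Pdgfra+ against Flk1+, 0.114 for cTnT+ against Flk1+Pdgfra+ and 0.145 for cTnT+ against Flk1+). Gmnc, an upstream regulator of multiciliated cells, was dim in every group. Trp73, listed with it, was dim in none. It averaged 6.84 ± 0.26 in Flk1+Pdgfra+, 6.70 ± 0.44 in Flk1+ and 6.51 ± 0.13 in cTnT+ cells. No comparison of Trp73 was called (adjusted p = 0.750 for Flk1+Pdgfra+ against Flk1+, 0.291 for cTnT+ against Flk1+Pdgfra+ and 0.556 for cTnT+ against Flk1+).

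Across the 39 genes the Flk1+ group tended to be lowest in the deposited values. It had the lowest mean for 32 of them, against 39.0% of all genes. The cTnT+ group had the highest mean for 22 (42.4% of all genes), Flk1+Pdgfra+ for 15 (37.3%) and Flk1+ for 2 (20.2%). For 20 genes the means ran from Flk1+ through Flk1+Pdgfra+ to cTnT+ in rising order, with no share over all genes counted for this. The orders of the 3 means were not recounted under other scalings. The cTnT+ mean lay above the Flk1+ mean for 34 genes as deposited, 26 after quantile normalization and 22 after median centring. It lay above the Flk1+Pdgfra+ mean for 23, 19 and 14 genes. In at least 1 comparison 21 genes were called (53.8%, against 51.3% of all genes), and 18 were called in none. All 3 group means were dim for 5 genes, which were Dnah5, Dnah14, Dnali1, Tekt2 and Tekt3.

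**Figure D1:**
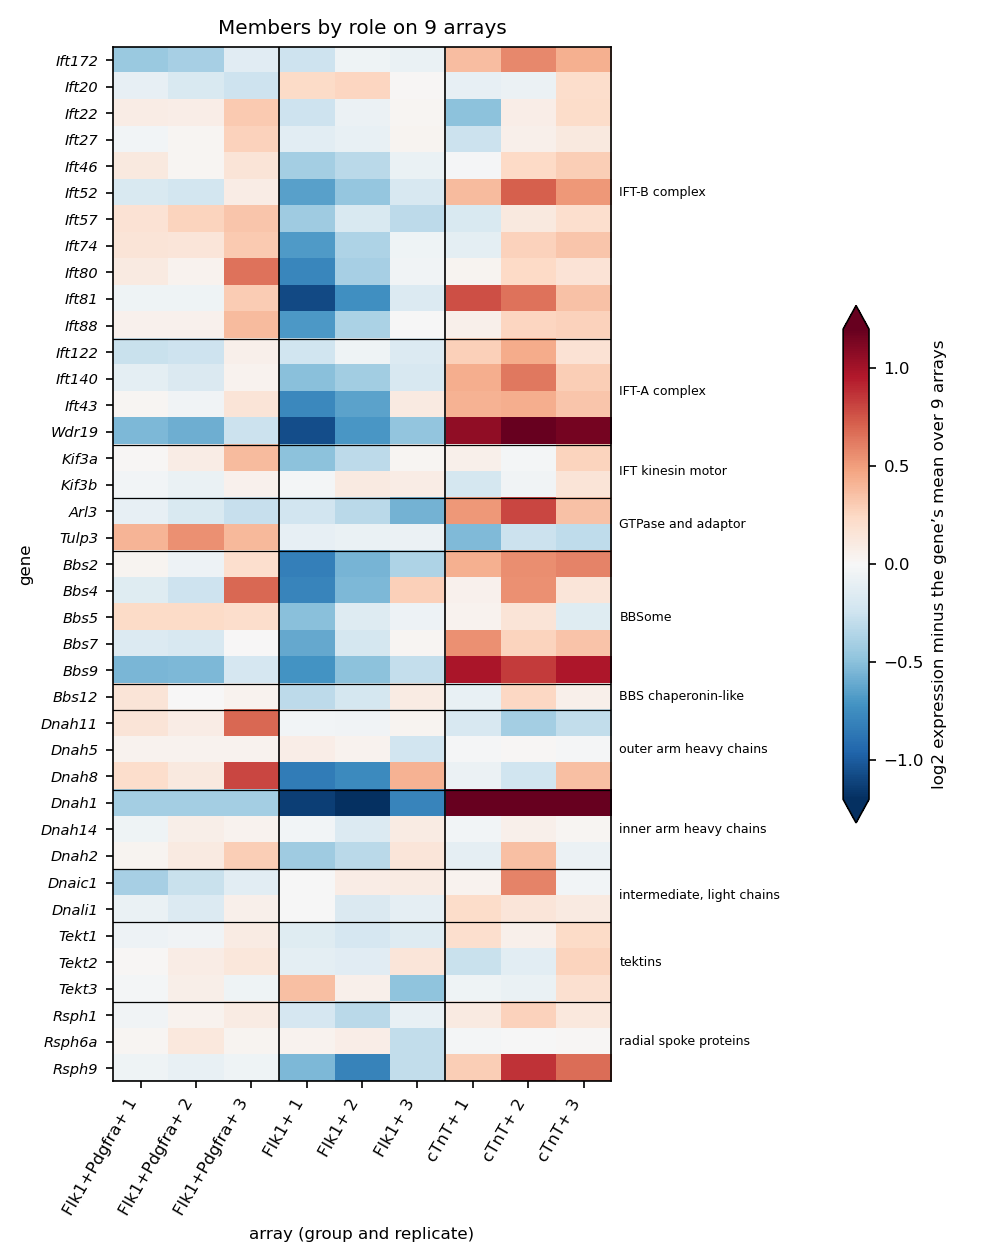
Log2 expression of the 39 genes on each of the 9 arrays, minus the mean of the gene over all arrays, with genes grouped by role (rows) and arrays by group (columns). Colour is limited at 1.2 log2 units either way. In the deposited values shown, the Flk1+ columns are lowest for most genes. The third Flk1+ array is closer to the other groups than the first and second.

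Upstream sequence of 4 genes is shown for orientation, from the RefSeq promoter table of build GRCm38.p6, 5′ to 3′ on the strand of the gene and ending at the base before the annotated start. Dnah1 (chr14:31323897-31324146, minus strand) and Wdr19 (chr5:65199446-65199695, plus strand) had the smallest adjusted p-values in cTnT+ against Flk1+. Bbs7 (chr3:36613390-36613639, minus strand) and Ift57 (chr16:49699044-49699293, plus strand) were chosen after the search described below, because they held its paired motif. Capitals mark matches to that motif or its core.
Dnah1: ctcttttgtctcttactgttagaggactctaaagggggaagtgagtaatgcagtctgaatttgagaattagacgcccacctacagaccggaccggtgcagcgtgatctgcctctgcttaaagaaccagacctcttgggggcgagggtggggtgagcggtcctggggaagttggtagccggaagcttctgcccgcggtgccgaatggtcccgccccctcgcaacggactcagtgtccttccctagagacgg
Wdr19: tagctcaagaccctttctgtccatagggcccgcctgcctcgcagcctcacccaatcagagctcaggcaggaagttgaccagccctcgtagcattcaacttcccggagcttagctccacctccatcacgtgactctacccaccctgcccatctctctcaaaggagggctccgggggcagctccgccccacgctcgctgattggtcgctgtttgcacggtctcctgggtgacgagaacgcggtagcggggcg
Bbs7: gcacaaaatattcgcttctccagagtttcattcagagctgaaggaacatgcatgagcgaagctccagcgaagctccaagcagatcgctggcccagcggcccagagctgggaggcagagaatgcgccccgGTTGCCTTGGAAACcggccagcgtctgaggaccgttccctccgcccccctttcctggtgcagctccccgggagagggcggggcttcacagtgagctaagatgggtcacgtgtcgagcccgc
Ift57: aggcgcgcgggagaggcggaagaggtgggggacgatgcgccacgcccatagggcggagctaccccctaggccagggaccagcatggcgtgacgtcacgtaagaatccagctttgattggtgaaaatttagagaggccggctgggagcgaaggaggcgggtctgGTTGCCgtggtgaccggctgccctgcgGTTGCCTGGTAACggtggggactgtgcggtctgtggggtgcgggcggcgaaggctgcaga

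RFX transcription factors, which drive ciliary genes in animals from worms to mice, bind the X-box, an imperfect inverted repeat. Its core was searched as GTTGCC on both strands and the repeat as GTTNCC, 0 to 3 bases, then GGNAAC, from 250 bases before to 50 after each start. These patterns overlap, since a repeat can contain the core. Of the 39 genes 35 were in the table, with 38 start windows. The core was present in 11 of the 38 windows (28.9%), against 4111 of 32851 windows of all genes (12.5%). The repeat was present in 2 of the 38 (5.26%), those of Bbs7 and Ift57, against 264 of all windows (0.804%). Base composition was not matched, the windows of 1 gene can overlap, and a match is a description of letters and not a binding site. Dnah1 and Wdr19, with the largest changes, held neither pattern in this window.

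The first comparison asked how the 2 progenitor fractions differed. Flk1+Pdgfra+ cells had the higher mean for 35 of the 39 genes (33 after quantile normalization and 34 after median centring), against 62.1% of all genes, but few of these differences passed the test. In all, 4 genes rose and 0 fell (10.3% of 39, where 10.5% of all 14860 genes were called, 4.64% higher and 5.87% lower). The share called was therefore near the background. None of the 4 reached a 2-fold change, against 4.36% of all genes. The median difference was 0.29 over the 39 genes and 0.068 over all genes. The groups did not overlap for 18 genes, 16 higher and 2 lower, against 34.3% of all genes (20.2% higher and 14.1% lower).

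Tulp3, an adaptor that links IFT-A to membrane receptors and restrains Hedgehog signalling, measured 10.57, 10.70 and 10.55 on the Flk1+Pdgfra+ arrays and 10.06, 10.08 and 10.08 on the Flk1+ arrays. All 3 Flk1+Pdgfra+ arrays lay above all Flk1+ arrays, by 1.45-fold (0.53 log2, adjusted p = 0.0105). Bbs2, a core BBSome subunit, measured 8.68, 8.58 and 8.85 in Flk1+Pdgfra+ and 7.82, 8.09 and 8.28 in Flk1+. The ranges were again separate, and the difference was 1.56-fold (0.64 ± 0.13 SE log2, adjusted p = 0.0186). Ift57, a peripheral IFT-B subunit, measured 9.44, 9.53 and 9.60 against 8.84, 9.09 and 8.96. Every Flk1+Pdgfra+ array was the higher, by 1.48-fold (adjusted p = 0.0221). Dnah1, an inner arm dynein heavy chain, averaged 6.97 in Flk1+Pdgfra+ with an SD of 0.00048, and 6.29 ± 0.27 in Flk1+, a difference of 1.60-fold (adjusted p = 0.0241). Such near-identical values occurred elsewhere, with an SD under 0.001 for 55 genes in this group.

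Each of the 4 calls was lost when some single array was left out. Tulp3 was lost without Flk1+Pdgfra+ replicate 2 (adjusted p = 0.0531). Bbs2 was lost without Flk1+Pdgfra+ replicate 1 or 3 or Flk1+ replicate 2, Ift57 without any Flk1+Pdgfra+ array or Flk1+ replicate 1, and Dnah1 without any Flk1+Pdgfra+ array or Flk1+ replicate 1 or 2. Where lost, these calls had adjusted p-values of 0.0531 to 0.0867. The count of genes that rose was 1 without any one Flk1+Pdgfra+ array, 2 without Flk1+ replicate 1 or 2, and 13 without Flk1+ replicate 3, where 4.47% to 7.56% of all genes were called in the first 5 of these fits and 15.5% in the last. Deviations of same-numbered progenitor arrays correlated at 0.25, 0.32 and 0.46. Replicates 1 and 2 correlated across numbers at 0.35 in both orders, so only the third arrays stood apart as a pair. With the replicate number as a block over all 9 arrays 9 genes rose and 0 fell, where 10.6% of all genes were called. The added genes were Dnah8 (0.77 log2, adjusted p = 0.0344), Ift74 (0.57, 0.0308), Ift80 (0.68, 0.0426), Ift88 (0.52, 0.0413) and Kif3a (0.43, 0.0364). The numbers were taken to pair only the progenitor arrays. A block fit of those 6 arrays alone called 7 genes higher (12.3% of all genes called). It kept the 4 genes and called Ift80 (adjusted p = 0.0357), Kif3a (0.0411) and Ift81 (0.0423), but not Dnah8, Ift74 or Ift88.

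The third array of both progenitor groups ran high for these genes. It was the highest of its group for 30 of 39 genes in Flk1+Pdgfra+ (44.9% of all genes) and for 28 of 39 in Flk1+ (40.0% of all genes). The median deviation of the 39 genes from the group mean was 0.12 and 0.18 log2 on these arrays. Dnah8, an outer arm heavy chain known from sperm, shows the spread: 5.24, 5.32 and 6.50 on the Flk1+ arrays and 6.29, 6.20 and 6.88 on the Flk1+Pdgfra+ arrays. The third Flk1+ array thus overlapped the other group, and the difference of 0.77 did not pass the test without the block (adjusted p = 0.212), nor in the block fit of the 6 progenitor arrays.

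In the opposite direction, Ift20, an IFT-B subunit that also resides at the Golgi, measured 11.48, 11.40 and 11.33 in Flk1+Pdgfra+ and 11.81, 11.84 and 11.60 in Flk1+. The groups were separate, but the difference of -0.34 did not pass (adjusted p = 0.0945). Dnaic1, an outer arm intermediate chain, differed by -0.32 (adjusted p = 0.266).

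**Figure D2:**
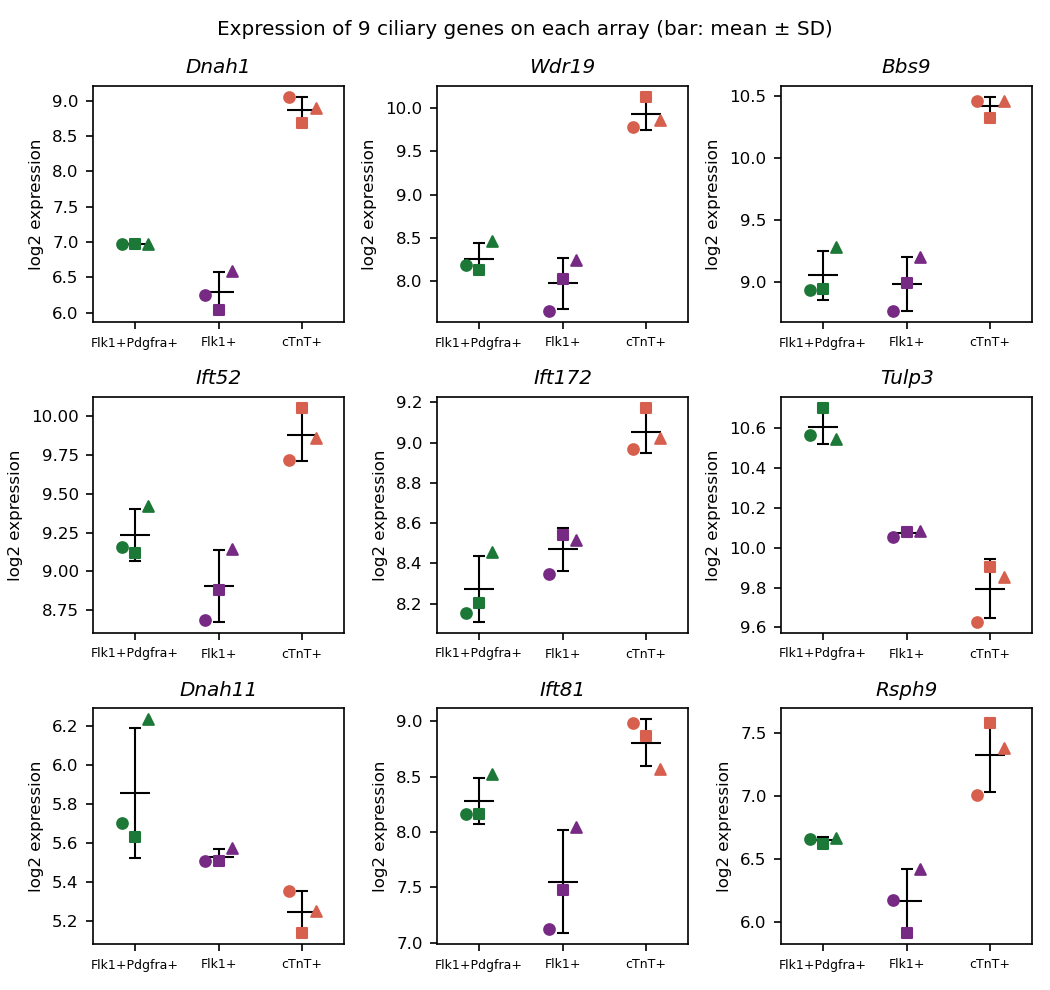
Log2 expression of 9 genes on each array, by group; circle, square and triangle are replicates 1, 2 and 3, and the bar is the mean ± SD over 3 arrays. Dnah1, Wdr19 and Bbs9 sit highest on the cTnT+ arrays with no overlap, whereas Tulp3 is highest on the Flk1+Pdgfra+ arrays.

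The second comparison followed Flk1+Pdgfra+ progenitors into cTnT+ cardiomyocytes. Of the 39 genes, 11 rose and 2 fell (33.3%, against 41.2% of all genes, 22.5% higher and 18.7% lower), so the share called was below the background. A change of 2-fold or more was called for 3 genes (15.6% of all genes): Dnah1, Wdr19 and Bbs9. The median difference was 0.075, against 0.0043 over all genes, and 23 genes lay above 0 (50.5% of all genes), or 19 after quantile normalization and 14 after median centring. The groups did not overlap for 22 genes, 17 higher and 5 lower, against 54.9% of all genes (28.8% higher and 26.2% lower).

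The split between rises and falls depended on how the arrays were scaled. Quantile normalization moved all genes by -0.11 log2 at the median in this comparison and median centring by -0.33, with -0.14 and -0.34 in cTnT+ against Flk1+, and -0.023 and -0.0078 between the progenitors. After quantile normalization 8 of the 39 rose and 7 fell, and after centring 5 rose and 14 fell, where 44.9% and 49.8% of all genes were called. The median of the 39 became -0.016 and -0.25, against -0.090 and -0.32 over all genes. Relative to the median gene, the 39 stayed slightly higher under each scaling.

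Dnah1 changed the most. It measured 9.05, 8.68 and 8.89 on the cTnT+ arrays, 6.97 on each Flk1+Pdgfra+ array, and 6.25, 6.04 and 6.59 on the Flk1+ arrays. The 3 groups were fully separate, with every cTnT+ array above every progenitor array. The rise from Flk1+Pdgfra+ was 3.75-fold (1.91 log2, 95% interval 1.57 to 2.24, adjusted p = 3.92e-05), and that from Flk1+ was 5.98-fold (adjusted p = 1.91e-05). A second, dimmer row for Dnah1 did not show this, at 5.73 ± 0.08 in Flk1+Pdgfra+, 5.56 ± 0.16 in Flk1+ and 5.75 ± 0.12 in cTnT+ cells. The rows of this gene therefore disagree. The second row lay near the dim limit in every group, with a dim mean in Flk1+ cells. Whether it can detect a rise was not tested.

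Among the IFT-A subunits, which serve the return journey and the entry of membrane proteins, Wdr19, Ift140 and Ift122 rose and Ift43 was not called. Wdr19 measured 9.78, 10.13 and 9.87 on the cTnT+ arrays, 8.18, 8.13 and 8.46 in Flk1+Pdgfra+, and 7.65, 8.03 and 8.24 in Flk1+. The cTnT+ arrays stood above all others, while the progenitor groups overlapped. The rise from Flk1+Pdgfra+ was 3.18-fold (1.67 log2, interval 1.28 to 2.06, adjusted p = 0.000140). Ift140 averaged 8.78 ± 0.17 against 8.23 ± 0.11, a rise of 1.46-fold (adjusted p = 0.00779). Ift122 averaged 9.25 ± 0.13 against 8.80 ± 0.19, a rise of 1.37-fold (adjusted p = 0.0155). Under either scaling the calls of Ift140 (adjusted p = 0.0594 and 0.151) and Ift122 (0.106 and 0.475) ended, so that Wdr19 alone of the 4 rose.

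Of the 11 IFT-B subunits, which serve outward transport, 2 rose and 0 fell. After quantile normalization 2 rose and 3 fell (Ift27, Ift57 and Ift74), and after centring 2 rose and 5 fell, with Ift22 and Ift80 added. Ift172, a large peripheral subunit, measured 8.97, 9.17 and 9.02 on the cTnT+ arrays, 8.15, 8.20 and 8.46 in Flk1+Pdgfra+, and 8.35, 8.54 and 8.52 in Flk1+. The cTnT+ arrays lay above both progenitor groups, which overlapped each other, and the rise was 1.72-fold (adjusted p = 0.000689). Ift52, a core subunit, measured 9.72, 10.05 and 9.86 in cTnT+, 9.16, 9.12 and 9.42 in Flk1+Pdgfra+, and 8.69, 8.88 and 9.15 in Flk1+. Again only the cTnT+ arrays were separate from the rest, with a rise of 1.56-fold (adjusted p = 0.00835). The kinesin-2 motor subunits were not called: Kif3a differed by -0.06 (95% interval -0.42 to 0.30) and Kif3b by -0.01 (-0.25 to 0.23). The sign for Kif3a turned in 4 of the alternative settings, and under centring it was called lower at -0.39. Kif3b was called lower under quantile normalization (-0.35, adjusted p = 0.0243) and centring (-0.34, 0.0489).

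In the BBSome, Bbs9, Bbs2 and Bbs7 rose, while Bbs4 and Bbs5 were not called. The split of 3 rises and 0 falls became 2 and 1 after quantile normalization and 1 and 1 after centring. Bbs9 measured 10.46, 10.33 and 10.46 on the cTnT+ arrays, 8.93, 8.95 and 9.28 in Flk1+Pdgfra+, and 8.76, 8.99 and 9.20 in Flk1+. The cTnT+ arrays were more than a full log2 unit above any progenitor array, which did not separate by fraction. The rise was 2.57-fold (adjusted p = 0.000136). Bbs2 measured 9.07, 9.20 and 9.25 in cTnT+ cells, above all Flk1+Pdgfra+ arrays, and rose by 1.38-fold (adjusted p = 0.0200), a call that ended under centring (0.304). Bbs7 averaged 8.45 ± 0.15 against 7.95 ± 0.11, a rise of 1.42-fold (adjusted p = 0.0368) that was not called under either scaling (0.322 and 0.336). Bbs5, a phosphoinositide-binding subunit, differed by -0.21 (adjusted p = 0.238) and was called lower after quantile normalization (-0.57, 0.00358) and centring (-0.54, 0.00677).

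The calls of Bbs2, Bbs7 and Ift122 each depended on single arrays. All 3 were lost without Flk1+Pdgfra+ replicate 1 (adjusted p = 0.0623 to 0.102), Flk1+Pdgfra+ replicate 2 (0.0626 to 0.110) or cTnT+ replicate 2 (0.0508 to 0.0555). Without cTnT+ replicate 3, Bbs2 and Bbs7 were lost (0.0597 and 0.0694). Bbs7 was also lost without Flk1+Pdgfra+ replicate 3 (0.0505), Flk1+ replicate 2 (0.0558) or cTnT+ replicate 1 (0.112). The other 10 calls held in every fit that left out 1 array, and 6 of the 13 held in every setting tried: Bbs9, Dnah1, Ift172, Ift52, Tulp3 and Wdr19. Dnah11 held in every setting that tested it and was removed by the filter on the dimmest 25% of genes.

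The membrane cargo genes split. Arl3, a small GTPase that releases lipid-modified cargo inside the cilium, measured 10.60, 10.88 and 10.43 on the cTnT+ arrays, 9.98, 9.89 and 9.80 in Flk1+Pdgfra+, and 9.85, 9.76 and 9.51 in Flk1+. The cTnT+ arrays were above all progenitor arrays, by 1.68-fold over Flk1+Pdgfra+ (adjusted p = 0.00274), a call that centring ended (adjusted p = 0.0887). Tulp3 went the other way and fell to 9.63, 9.90 and 9.85 on the cTnT+ arrays. Each lay below every progenitor array, and the fall from Flk1+Pdgfra+ was -0.81 log2, or 1.75-fold (adjusted p = 0.000266).

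Among the 14 axonemal genes 2 rose and 1 fell, and among the 25 transport genes 9 rose and 1 fell. The difference between these sets was not tested. After quantile normalization the axonemal counts were 2 and 1 and the transport counts 6 and 6, and after centring 1 and 4, and 4 and 10. Beside Dnah1, Rsph9, a radial spoke head protein, rose: it measured 7.01, 7.58 and 7.38 on the cTnT+ arrays, 6.66, 6.62 and 6.66 in Flk1+Pdgfra+, and 6.18, 5.91 and 6.42 in Flk1+. The 3 groups did not overlap, and the rise from Flk1+Pdgfra+ was 1.60-fold (adjusted p = 0.0122), with the call lost under centring (0.0690). Dnah11, the outer arm heavy chain mutated in the mouse inversus viscerum strain, measured 5.35, 5.14 and 5.25 in cTnT+, 5.70, 5.63 and 6.24 in Flk1+Pdgfra+, and 5.51, 5.51 and 5.57 in Flk1+. It fell by 0.61 log2 from Flk1+Pdgfra+ (adjusted p = 0.0133), but the cTnT+ and Flk1+ means were dim, so no fold is given. Dnaic1 differed by 0.46 with separate groups and was not called (adjusted p = 0.0537). Of the 14 axonemal genes, 6 were dim in at least 1 of the 2 groups of this comparison.

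**Figure D3:**
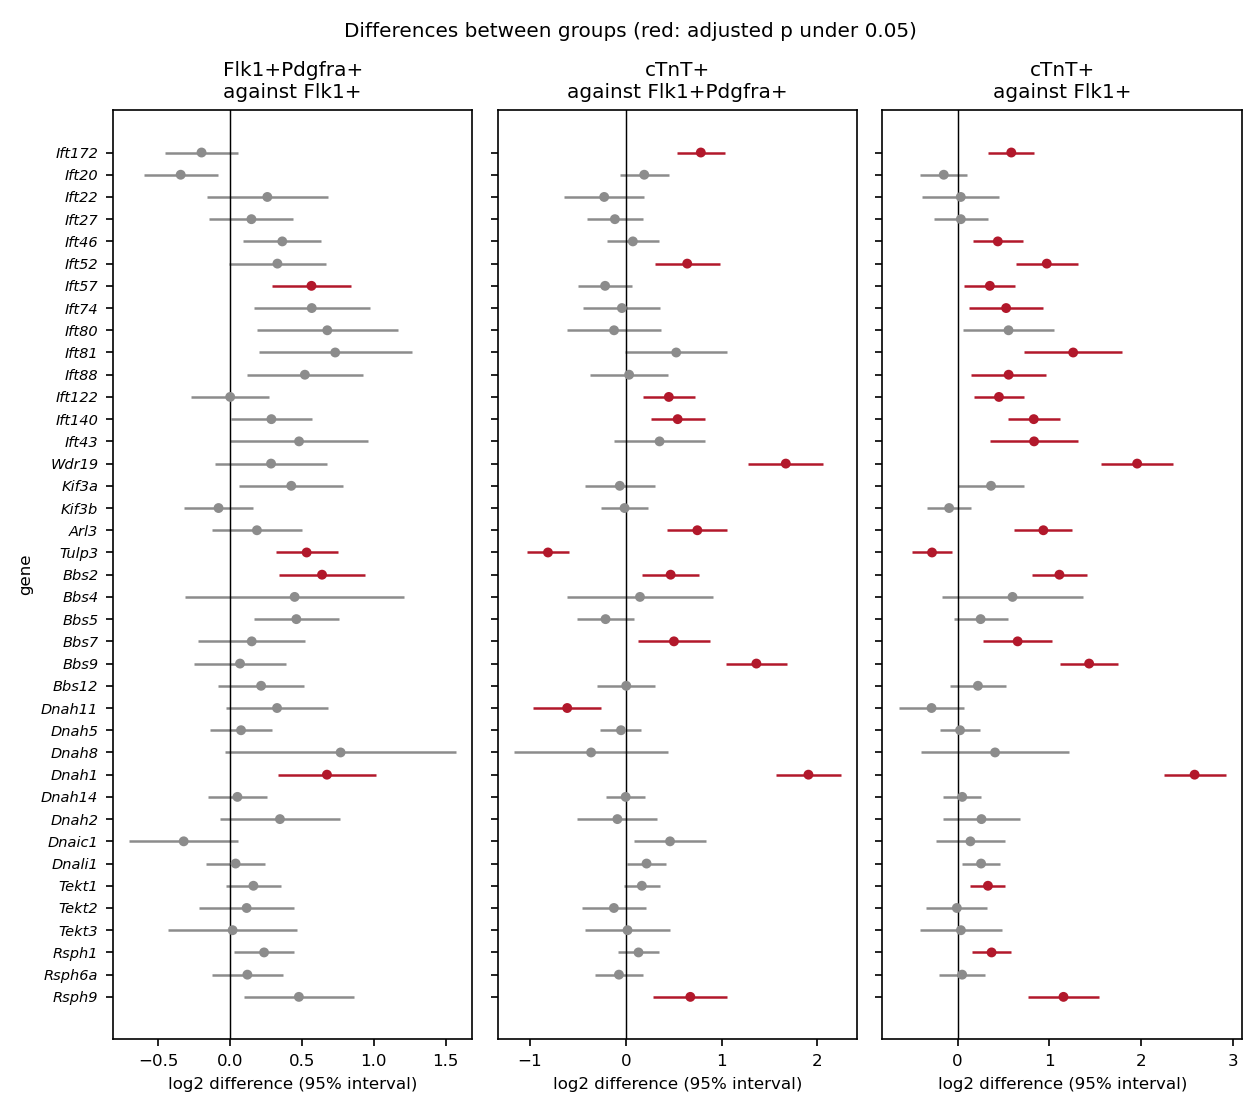
Log2 difference of each of the 39 genes with its 95% interval in the 3 comparisons, in red where limma's adjusted p was under 0.05. The largest rises are those of Dnah1, Wdr19 and Bbs9 in the cTnT+ comparisons, and the progenitor comparison has 4 red points, all above 0.

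The third comparison set cTnT+ cells against Flk1+ progenitors, which are not the fraction they were grown from. Here 19 genes rose and 1 fell (51.3%, against 39.2% of all genes, 22.6% higher and 16.6% lower), and 6 changed at least 2-fold (14.1% of all genes). The median difference was 0.37, against 0.053 over all genes, and 34 genes lay above 0 (56.7% of all genes), or 26 after quantile normalization and 22 after centring. The groups did not overlap for 21 genes, 19 higher (26.8% of all genes) and 2 lower, 47.4% of all genes being separate either way. After quantile normalization 12 rose and 3 fell, and after centring 10 rose and 4 fell, where 41.8% and 44.6% of all genes were called. The transport genes held 15 of the rises and the axonemal genes 4, with medians of 0.55 and 0.20.

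All 4 IFT-A genes rose as deposited and 3 after either scaling, which ended the call of Ift122 (adjusted p = 0.106 and 0.509). The rises were Wdr19 by 3.88-fold (adjusted p = 9.11e-05), Ift140 by 1.78-fold (0.00107), Ift43 by 1.78-fold (0.0130) and Ift122 by 1.37-fold (0.0162). Of the 11 IFT-B genes 7 rose and 0 fell, which became 4 and 1 after quantile normalization and 2 and 1 after centring. Ift81, which binds tubulin together with Ift74, measured 8.99, 8.87 and 8.57 on the cTnT+ arrays against 7.13, 7.48 and 8.05 on the Flk1+ arrays. The groups were separate, with the third Flk1+ array the highest of its group, and the rise was 2.39-fold (adjusted p = 0.00308). Ift52 rose by 1.96-fold (0.00121) and Ift172 by 0.59 log2 (0.00343). Smaller rises were called for Ift46, Ift57, Ift74 and Ift88, between 1.28- and 1.47-fold, and the groups overlapped for Ift57 and Ift74. Ift57, Ift74 and Ift88 were not called under either scaling (adjusted p = 0.0872 to 0.928), and Ift172 (0.121) and Ift46 (0.443) were not called under centring.

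Bbs9 rose by 2.70-fold (adjusted p = 0.000140), Bbs2 by 2.16-fold (0.000347) and Bbs7 by 1.57-fold (0.0127), the last not called under either scaling (0.112 and 0.109). Arl3 rose by 1.91-fold (0.00103) and Rsph9 by 2.22-fold (0.001004). Tekt1, a tektin of motile axonemes, rose by 1.26-fold (0.0133), and Rsph1, another spoke head protein, by 0.37 log2 from a dim Flk1+ level (0.0127). Neither was called under quantile normalization (0.218 for Tekt1 and 0.107 for Rsph1) or centring (0.974 and 0.812). Tulp3 was the single fall, by 0.28 log2 (0.0464).

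Leaving out 1 array ended 9 of these 20 calls. Without Flk1+ replicate 2, 8 were lost (Ift43, Ift46, Ift57, Ift74, Ift88, Rsph1, Tekt1 and Tulp3, adjusted p = 0.0519 to 0.114) and 12 rises were left. Without Flk1+ replicate 1, 6 were lost (0.0549 to 0.141): Ift46, Ift57, Ift74, Ift88, Tulp3 and Ift122. Without cTnT+ replicate 2 the same genes except Tulp3 were lost (0.0530 to 0.126), and without cTnT+ replicate 3 the same except Ift122 (0.0597 to 0.143). Ift57, Ift74, Ift88 and Tulp3 were lost without Flk1+Pdgfra+ replicate 1 (0.0532 to 0.0731) or 2 (0.0536 to 0.0770), and all of these but Ift88 without Flk1+Pdgfra+ replicate 3 (0.0562 to 0.0633). Ift57 and Tulp3 were lost without Flk1+ replicate 3 (0.0878 and 0.0848), and Tulp3 without cTnT+ replicate 1 (0.120). In contrast Arl3, Bbs2, Bbs9, Dnah1, Ift140, Ift52, Ift81, Rsph9 and Wdr19 held in every setting tried.

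Genes that act with the 39 were taken from lists that hold none of them, and the directions of list medians below were checked under both scalings. Over all genes, 4.64% were called higher and 5.87% lower in Flk1+Pdgfra+ against Flk1+. The shares were 22.5% and 18.7% in cTnT+ against Flk1+Pdgfra+, and 22.6% and 16.6% in cTnT+ against Flk1+. The list counts were not tested against these shares. Of 11 other transport subunits measured, 3 rose and 0 fell in Flk1+Pdgfra+ against Flk1+ (median 0.31), 3 rose and 3 fell in cTnT+ against Flk1+Pdgfra+ (0.21, turning to -0.11 under centring), and 7 rose and 2 fell in cTnT+ against Flk1+ (0.55). After centring the last counts were 2 and 2. Dync2li1, the light intermediate chain of the dynein-2 motor, averaged 7.09 ± 0.38 in Flk1+, 7.90 ± 0.14 in Flk1+Pdgfra+ and 9.11 ± 0.17 in cTnT+ cells. It was higher in Flk1+Pdgfra+ than in Flk1+ by 1.76-fold (adjusted p = 0.0300), and in cTnT+ than in Flk1+Pdgfra+ by 2.32-fold (0.00118). The first call was lost without any one of 5 progenitor arrays, all except Flk1+ replicate 3 (0.0783 to 0.117). It was also lost in the fit of only the 6 arrays compared (0.0556). Ttc26 and Wdr34 were the other rises between progenitors. The call of Ttc26 was not lost in any setting that tested it. That of Wdr34 was lost without Flk1+Pdgfra+ replicate 1 (0.0520) or Flk1+ replicate 2 (0.0534). Kifap3, the kinesin-2 accessory subunit, rose by 0.54 log2 (0.00980) from Flk1+Pdgfra+ to cTnT+, a call that ended under centring (0.137), and Mkks, a BBSome chaperonin, fell by 0.58 (0.00238).

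Of 23 other motile axoneme and dynein assembly genes, 3 rose and 0 fell between progenitors, 4 rose and 4 fell in cTnT+ against Flk1+Pdgfra+, and 9 rose and 2 fell in cTnT+ against Flk1+. After either scaling the 3 calls between progenitors were lost, and after centring the counts were 1 and 7, and 6 and 5. In cTnT+ against Flk1+Pdgfra+, Dnal1, an outer arm light chain, rose by 0.78 (adjusted p = 0.00163), while Gas8, a nexin-dynein regulatory subunit, fell by 0.79 (0.00145). Of 24 transition zone and basal body genes, 4 rose and 0 fell between progenitors. In cTnT+ against Flk1+Pdgfra+ 4 of them rose and 7 fell, with Tmem216 lower by 0.81 (log2 difference -0.81, 0.00231), and 3 rose and 3 fell in cTnT+ against Flk1+. After centring these counts were 0 and 13, and 1 and 5.

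Of 15 Hedgehog pathway genes, 3 rose and 0 fell in Flk1+Pdgfra+ against Flk1+ (median 0.50), 2 rose and 3 fell in cTnT+ against Flk1+Pdgfra+ (-0.12), and 3 rose and 0 fell in cTnT+ against Flk1+ (0.12, turning to -0.025 after quantile normalization and -0.22 after centring). After quantile normalization the counts were 3 and 0, 0 and 3, and 2 and 3 in the same order. After centring they were 2 and 0, 0 and 5, and 2 and 1. Gli1, a transcription factor and target of the pathway, was 0.57 log2 higher in Flk1+Pdgfra+ than in Flk1+ (adjusted p = 0.0142) and fell by 0.65 in cTnT+ cells (0.00174). The first of these calls was lost without Flk1+Pdgfra+ replicate 1 or 2 or Flk1+ replicate 2 (0.0646 to 0.0660) and under centring (0.0615). Evc, a Hedgehog component at the base of the cilium, was 0.55 higher in Flk1+Pdgfra+ than in Flk1+ (0.00936). Gas1 was also called higher in Flk1+Pdgfra+ than in Flk1+. That call was lost without the third progenitor arrays, where the difference was 1.52 log2 (adjusted p = 0.0514). It was also lost without any one of 5 progenitor arrays, all except Flk1+ replicate 3 (0.0697 to 0.108).

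Of 9 genes that restrain or dismantle cilia, 1 rose and 6 fell in cTnT+ against Flk1+Pdgfra+ (median -0.58), and 0 rose and 6 fell in cTnT+ against Flk1+ (-0.45). Nek2, a centrosomal kinase, fell by 1.11 (adjusted p = 0.000219), and Kif24, a kinesin that remodels centriolar microtubules, by 0.87 (0.000594). Several of these, such as Nek2, Aurka and Plk1, also belong to the cell cycle. Of 8 proliferation markers, 6 fell and 0 rose in cTnT+ against Flk1+Pdgfra+ (median -0.49), Mcm5 by 1.12 (0.000131). Of 8 ciliogenesis transcription factors, 0 rose and 1 fell in that comparison, Rfx1 by 0.42 (0.00613), with 3 falls after quantile normalization and 5 after centring. Of 5 node and left-right genes, 1 rose and 2 fell there, Nodal by 1.80 (0.00513). Under either scaling 0 of these 5 rose and 2 fell.

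**Figure D4:**
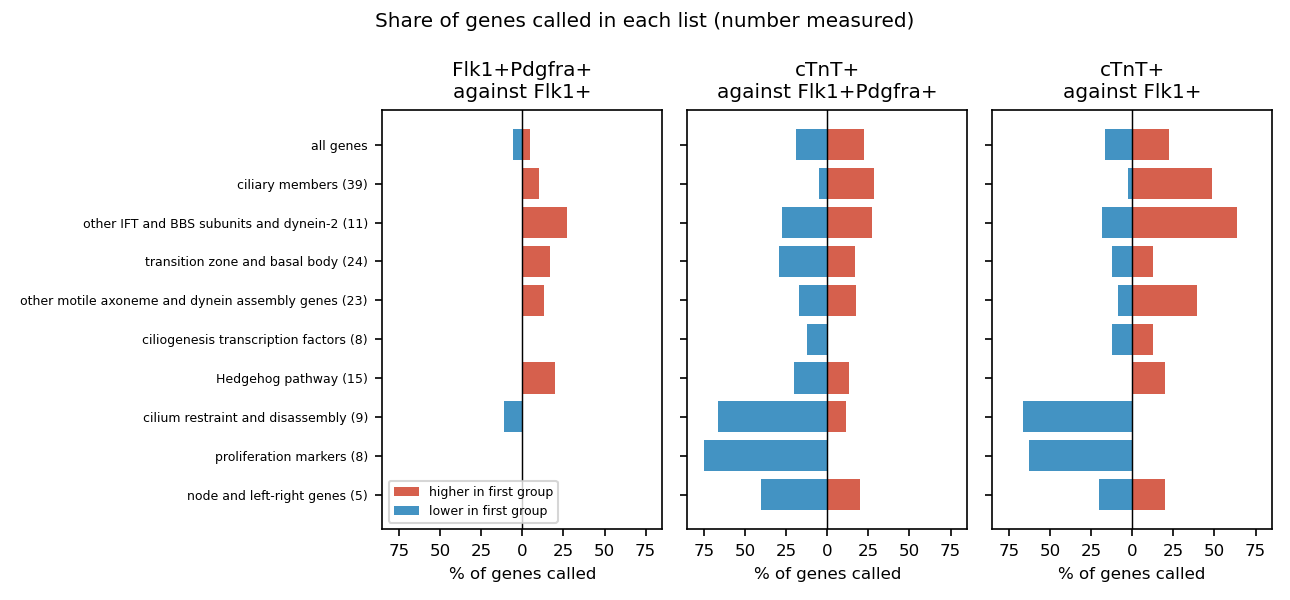
Percent of measured genes called higher (red) or lower (blue) in the 3 comparisons, for all 14860 genes, the 39 genes and 8 lists of genes that act with them. The 39 genes and the other transport subunits are mostly red in cTnT+ against Flk1+, whereas the restraint and proliferation lists are mostly blue in both cTnT+ comparisons.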

How the data were processed

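Per the labels, the authors derived core-gene RMA values, which are on the log2 scale, with the Transcriptome Analysis Console. RMA and R 3.3.1 are listed in the submitters' processing notes. The genome build behind the array annotation is not given in the sources used here. Deposited values on the 9 arrays do not share 1 distribution: medians over the genes tested ran from 7.84 to 8.40, highest on the cTnT+ arrays, so scaling was varied. Medians over all transcript clusters ran from 7.26 to 7.53. The median difference over all genes as deposited was 0.0043 in cTnT+ against Flk1+Pdgfra+ and 0.053 against Flk1+. Median centring took these to -0.32 and -0.28, so it moved the typical gene towards a fall in cTnT+ cells. Which scaling is the more accurate was not tested. No detection signal was used, and the number of arrays limits the precision.

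Of 23332 transcript clusters, 14996 carried 1 gene symbol, 1019 several and 7317 none. Symbols were updated through the RefSeq table of GRCm38.p6 (14941 matched, 55 kept). For the 135 genes with several clusters the brightest was kept, leaving 14860 genes. A cluster with several symbols was not assigned to any of them.

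Group differences came from a two-sided limma test (version 3.58.1, R 4.3.3) of all 9 arrays, with 6 residual and 2.23 prior degrees of freedom and Benjamini-Hochberg adjustment over all genes, at a threshold of 0.05. An exact permutation test of 3 against 3 arrays cannot go below p = 0.1. On simulated data for Flk1+Pdgfra+ against Flk1+ over 14860 genes, 73% of changes of 1 log2 unit and 95% of changes of 2 were recovered, with 9 false calls. Summed marker signals are log2 of the sum of linear values.

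The members and gene lists were chosen with earlier results of these data known. The rule for naming genes took, per comparison, up to 12 called members with the largest rise and 12 with the largest fall, the member with the smallest p of each role without a call, and up to 3 called genes of each companion list. Not every gene that the rule took is named in the text. Any other gene named was chosen after its values were seen. Deviations of same-numbered arrays correlated at 0.25, 0.32 and 0.46 between the progenitor groups and at 0.023 to 0.095 with cTnT+, so replicate numbers were taken to pair the progenitor arrays only. Between the progenitors, replicates 1 and 2 also correlated with each other, at 0.35 in both orders, so only the third arrays stood apart as a pair. Alternatives were a replicate block, a filter on the dimmest 25% of genes, quantile normalization, median centring, trend with robust moderation, array weights, the mean of clusters, fits of the compared arrays only, and leaving out arrays. A block fit of the 6 progenitor arrays alone was added after seeing the data.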

Additional observations from a re-analysis of the deposited data

How the results depend on the processing

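Between the progenitors, the 4 rises became 9 with the replicate block, 7 with the replicate block on the 6 progenitor arrays alone, 9 under quantile normalization, 8 under median centring, 8 without the third progenitor arrays and 22 with array weights, which also called 4 lower and called 50.7% of all genes. Leaving out 1 array gave 1 to 13 rises and 0 to 1 falls. In cTnT+ against Flk1+Pdgfra+, median centring gave 5 rises and 14 falls and a median difference of -0.25, quantile normalization gave 7 falls, and the filter on dim genes gave 1 fall. Leaving out 1 array gave 8 to 13 rises and 2 falls each time. In cTnT+ against Flk1+, quantile normalization gave 12 rises and 3 falls, and centring gave 10 and 4, with a median of 0.034. The count of falls was 0 with the replicate block, with only the 6 arrays compared and without the third progenitor arrays. Leaving out 1 array gave 12 to 22 rises and 0 to 1 falls. The cause of these shifts was not tested.

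Signs turned for genes that were not called or were small. Bbs12 in cTnT+ against Flk1+Pdgfra+ went to -0.27 under quantile normalization, -0.32 under centring, -0.00662 without the third progenitor arrays, and between -0.083 and 0.087 when 1 array was left out (-0.026 without Flk1+Pdgfra+ replicate 2 and -0.00662 without replicate 3). Kif3a there went to 0.0089 with array weights, 0.047 without the third progenitor arrays or Flk1+Pdgfra+ replicate 3, and 0.00044 without cTnT+ replicate 2, with -0.14 the lowest when 1 array was left out. Tekt1 there went to -0.16 under centring. Against Flk1+, Bbs12 went to -0.11 under both scalings, and centring turned Dnali1 to -0.080 and Iqcb1, a transition zone gene, to -0.032. Centring also turned Tekt1, a called member in that comparison, to -0.0054.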

Other observations

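Clusters that carried a member symbol together with another gene were named for neither. The cluster shared by Bbs1 and Dpp3 averaged 10.96 ± 0.03 in Flk1+Pdgfra+, 10.33 ± 0.09 in Flk1+ and 10.54 ± 0.23 in cTnT+ cells. The cluster shared by Fgf2 and Bbs12 averaged 5.28, 5.35 and 5.98 ± 0.31 in the same order, and the cluster shared by Asb14 and Dnah12 averaged 4.23, 4.47 and 4.25. Their signal cannot be assigned to 1 gene.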
